A study of Homo sapiens with 6 samples.

Results

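The 6 genes described here, OAS1, OAS2, OAS3, OASL, EIF2AK2 and ADAR, encode proteins that bind double-stranded RNA and act on it or in answer to it. They were taken by name from the 57820 human genes of an RNA table, and all 6 were found and were tested. The table covers the human colorectal cancer line HCT116, in long use as an established cell line, in 3 samples of the unmodified line (WT) and 3 of DKO1. DKO1 is an HCT116 derivative in which the submitters report knockout of the DNA methyltransferase genes DNMT1 and DNMT3B. Since DKO1 is treated here as 1 line, what the knockouts did and any other difference between the lines cannot be told apart. Both lines were cultured in McCoy's 5A medium with serum, with no treatment named in the labels. RNA was read from stranded libraries of messenger RNA. The series concerns DNA methylation and genome folding.

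Long double-stranded RNA is rare in the cytoplasm of healthy cells and is a mark of viral infection or of paired transcripts of repeats. On binding it, the oligoadenylate synthetases OAS1, OAS2 and OAS3 make short chains of adenylate, second messengers of an antiviral response that ends in the breakdown of RNA. OASL, their relative, has lost this enzyme activity and enhances signalling from the RNA sensor RIGI. EIF2AK2 encodes the kinase PKR, which phosphorylates the initiation factor eIF2 and so stops protein synthesis, and ADAR edits adenosine to inosine in double-stranded RNA, which keeps cellular RNA from being sensed. Transcription of these genes is raised by type I interferon through a complex that includes STAT2 and IRF9 and binds a promoter element with a pair of GAAA repeats, and ADAR also has a promoter that works without interferon.

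The start regions of the genes are shown because that element can be read in them directly. RefSeq promoter windows on build GRCh38.p14 were held for 4 of the 6 genes (OAS1, OAS3, EIF2AK2 and ADAR), and each line below runs from 160 bases before the start to 20 after it, 5′ to 3′. Capitals mark matches on either strand to GAAANNGAAA, to GAAANGAAA or to AACGAAAC, the last of which was chosen after the sequences were seen and can overlap the other motifs.
OAS1, chr12:112906802-112906981, plus strand: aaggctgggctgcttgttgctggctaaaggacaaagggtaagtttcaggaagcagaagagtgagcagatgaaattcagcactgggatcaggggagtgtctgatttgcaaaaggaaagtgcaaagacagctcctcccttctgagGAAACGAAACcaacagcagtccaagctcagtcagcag
OAS3, chr12:112938314-112938493, plus strand: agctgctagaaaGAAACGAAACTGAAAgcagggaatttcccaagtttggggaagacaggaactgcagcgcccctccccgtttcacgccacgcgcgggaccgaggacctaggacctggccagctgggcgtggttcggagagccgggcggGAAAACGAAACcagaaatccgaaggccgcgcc
EIF2AK2, chr2:37156961-37157140, minus strand: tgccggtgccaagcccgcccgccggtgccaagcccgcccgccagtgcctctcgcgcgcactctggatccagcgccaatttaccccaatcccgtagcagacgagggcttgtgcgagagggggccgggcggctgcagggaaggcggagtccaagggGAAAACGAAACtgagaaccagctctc
ADAR, window 1, chr1:154627978-154628157, minus strand: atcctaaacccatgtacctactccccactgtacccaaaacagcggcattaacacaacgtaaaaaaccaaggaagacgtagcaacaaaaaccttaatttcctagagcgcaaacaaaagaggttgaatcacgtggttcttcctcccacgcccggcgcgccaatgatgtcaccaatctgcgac
ADAR, window 3, chr1:154608778-154608957, minus strand: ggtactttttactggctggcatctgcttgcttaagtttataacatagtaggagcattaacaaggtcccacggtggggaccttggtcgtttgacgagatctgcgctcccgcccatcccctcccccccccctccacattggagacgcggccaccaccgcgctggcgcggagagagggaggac

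OAS1, OAS3 and EIF2AK2 each held AACGAAAC, and OAS3 held it at 2 places. Over all 35116 windows of 300 bases, 88 windows (0.251%) held these letters on either strand, while 3.574% held GAAANNGAAA and 3.124% held GAAANGAAA. Because AACGAAAC was chosen after these sequences were seen, its share over all windows is no test of enrichment in them. OAS1 matched GAAANGAAA, from 17 bases before the start, and did not match GAAANNGAAA. OAS3 matched GAAANGAAA too, from 148 bases before the start. The match of EIF2AK2 to GAAANNGAAA began 6 bases before the start and ran across it, and those of OAS3 began at 143 and 12 bases before the start. None of the 3 ADAR windows, of which windows 1 and 2 overlap, held any of these letters, and which ADAR isoform starts at which window was not determined.

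The windows also differed in CpG, the dinucleotide that DNA methyltransferases modify. The OAS1 window held 1 CpG, where 4.0% of windows held fewer, and that CpG lay inside the capital letters. The OAS3 window held 20 CpG, with 2 inside its matches, the EIF2AK2 window held 30, with 1 inside its match, and the ADAR windows held 13 or 14, where the median window held 14. Methylation was not analysed here, so these counts describe sequence only.

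Values below are TPM, the authors' measure of transcript abundance per length, scaled to a fixed total in each sample, so levels of different genes can be compared. Log2 fold changes are DKO1 minus WT on log2(TPM + 1), which understates the change of low genes. The threshold for a call was an adjusted p of 0.05 in limma, over 13604 genes that reached 1 TPM in 3 or more samples. Labels and libraries were first checked. DNMT1 fell from 242 ± 9.81 to 36.2 ± 9.17 TPM (SD, n = 3 per genotype), and DNMT3B had means of 7.36 in WT and 4.42 in DKO1 (limma adjusted p = 0.03). The DNMT3B call was lost with mitochondrial genes and spike-ins removed (adjusted p = 0.065) and on leaving out DKO1 replicate 1 (0.0535) or WT replicate 1, 2 or 3 (0.11, 0.0908 and 0.0778). The share of mitochondrially encoded TPM was 19.7% to 20.1% in WT, 26.9% and 27.7% in DKO1 replicates 1 and 2 and 21.2% in DKO1 replicate 3. Epithelial markers summed to 942 to 1178 TPM in WT against 700 to 930 in DKO1. Their members differed in direction. The keratins KRT8 and KRT18 had means of 382 and 143 TPM in WT against 219 and 87.8 in DKO1. KRT19 and KRT20 had higher means in DKO1, at 12.1 and 2.46 TPM in WT against 20.9 and 3.59. None of these keratins was called (limma adjusted p = 0.0543, 0.255, 0.572 and 0.1). EPCAM was at 371 TPM or above in every sample and was not called, and CDH1, the epithelial cadherin, rose 3.30-fold, from 2.97 ± 0.494 to 9.82 ± 0.277 TPM (SD, n = 3; limma adjusted p = 0.000418). The intestinal markers VIL1 and CDX2 were low, at no more than 0.43 and 1.38 TPM, and CDX2 was called lower (limma adjusted p = 0.026), a call lost without WT replicate 1, 2 or 3 (0.0953, 0.0789 and 0.102).

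All 4 OAS family genes rose in DKO1. The call rule passed 18.8% of all tested genes as higher and 9.6% as lower. Of the 6 genes described here, 5 were called higher, the 4 OAS genes and ADAR, and 0 lower. EIF2AK2 missed the threshold. All 6 genes had their 3 DKO1 values above their 3 WT values, as did 27.5% of tested genes. OAS1, OAS2 and OASL lay below 0.5 TPM in all WT samples. They could enter the test only with all 3 DKO1 values at 1 TPM or above. Their direction and lack of overlap were thus fixed by the filter and are no separate result. With no filter OAS1, OAS2 and OASL were also called higher (limma adjusted p = 0.000719, 0.00202 and 0.000449). The share of calls that were higher was 66.2% over all genes, but with median-ratio scaling it was 56.8% and with quantile normalization 48.4%. With median-ratio factors taken over all genes above 0 in every sample it was 49.8%. The median over tested genes, on the log2 scale, was 0.073, and it was −0.066 with quantile normalization and 0.189 on removing mitochondrial genes and spike-ins. In bulk RNA, a change in the number of expressing cells and a change per cell cannot be told apart.

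**Figure D1:**
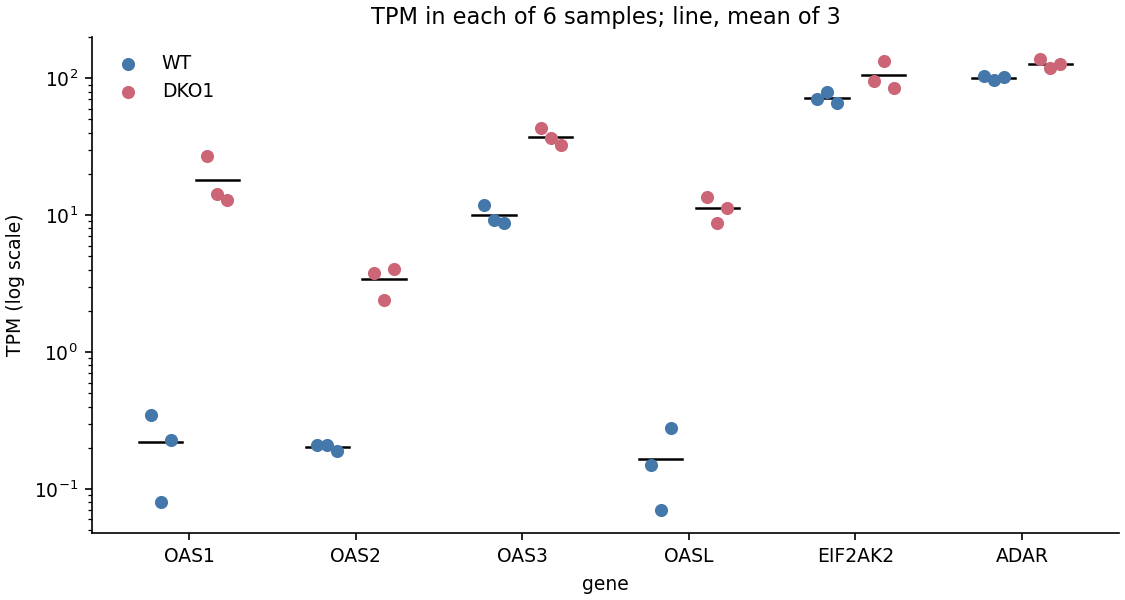
TPM on a log axis for each gene, with WT samples in blue and DKO1 samples in red, 3 points per genotype and a line at the mean. OAS1, OAS2 and OASL lie below 0.5 TPM in all WT samples, whereas EIF2AK2 and ADAR lie above 60 TPM in every sample.

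OAS1, the smallest of the synthetases, went from near silence to a moderate level. It was at 0.35, 0.08 and 0.23 TPM in WT replicates 1, 2 and 3 and at 27.04, 14.35 and 12.86 TPM in the DKO1 replicates (ENSG00000089127.8, chromosome 12). The groups were far apart, and DKO1 replicate 1 stood above the other DKO1 samples. The log2 fold change was 3.90 (SE 0.28, limma adjusted p = 6.28e-05). With a pseudocount of 0.1 in place of 1 it was 5.85, and all WT values lie below 1 TPM.

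OASL, the relative without synthetase activity, behaved much the same (ENSG00000135114.8, chromosome 12). Its WT values were 0.15, 0.07 and 0.28 TPM, and its DKO1 values were 13.59, 8.71 and 11.33 TPM. No DKO1 sample came near the WT range. The log2 fold change was 3.37 (SE 0.19, limma adjusted p = 2.42e-05), and 5.46 with a pseudocount of 0.1.

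OAS2 rose but stayed the lowest of the family in DKO1 (ENSG00000111335.8, chromosome 12). It was at 0.21, 0.21 and 0.19 TPM in WT against 3.78, 2.4 and 4.07 in DKO1. DKO1 replicate 2 was the lowest of the 3 and still lay above every WT sample. The log2 fold change was 1.85 (SE 0.18, limma adjusted p = 0.000276). Its size depended on the scale, with 3.50 at a pseudocount of 0.1 and 1.24 under quantile normalization.

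OAS3, the largest synthetase, was the family member already expressed in WT (ENSG00000111331.8, chromosome 12). Its values were 11.82, 9.29 and 8.78 TPM in WT against 43.22, 36.67 and 32.33 in DKO1. The mean was 3.75-fold higher, from 9.96 ± 1.63 to 37.4 ± 5.48 TPM (SD, n = 3; log2 fold change 1.81, SE 0.17, limma adjusted p = 0.000221). Among samples that share a replicate number the ratio was 3.66, 3.95 and 3.68, and replicate 1 was highest in both genotypes.

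The make-up of the family differed between the lines. OAS3 supplied 94.3%, 96.3% and 92.6% of the summed OAS family TPM in WT and 49.3%, 59.0% and 53.4% in DKO1. OAS1 supplied 0.829% to 2.79% in WT and 21.2% to 30.9% in DKO1, and OASL 0.725% to 2.95% and 14.02% to 18.7%. The summed level went from 10.6 ± 1.71 to 70.1 ± 15.2 TPM (SD, n = 3). The shares of OAS1, OAS3 and OASL and the sum each gave p = 0.1 in an exact two-sided permutation test, and no lower p is possible with 3 samples a side.

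**Figure D2:**
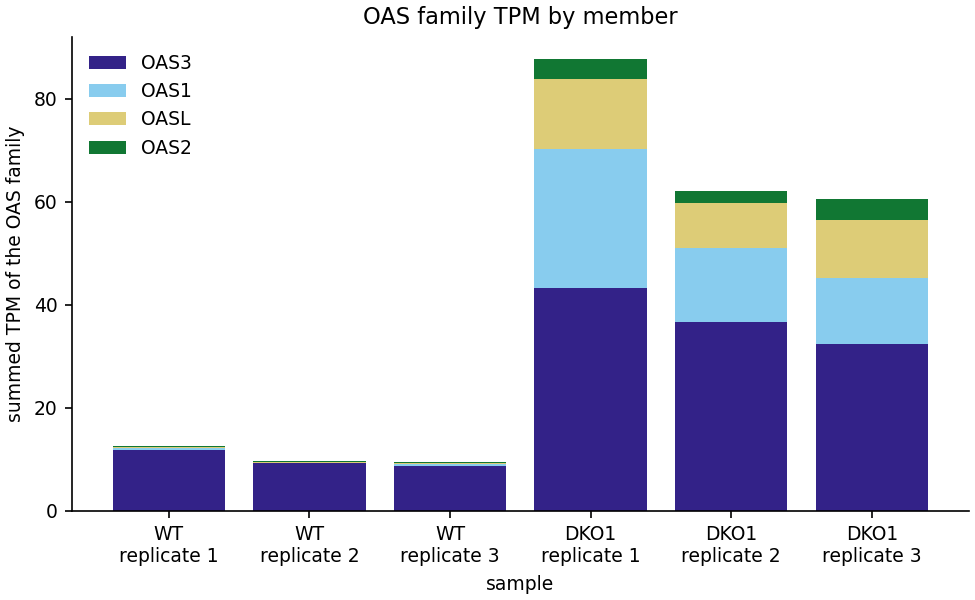
Summed TPM of OAS3, OAS1, OASL and OAS2 in each of the 6 samples, stacked by gene. The WT bars, at 9.48 to 12.5 TPM, are nearly all OAS3, while the DKO1 bars, at 60.6 to 87.6 TPM, hold visible parts of OAS1 and OASL.

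Other genes of the OAS arm were called lower or not called. ABCE1, a ribosome recycling factor, fell from 373 ± 23.2 to 186 ± 50.6 TPM, 2.00-fold lower (SD, n = 3; limma adjusted p = 0.00629). Its DKO1 values were 142.05, 175.69 and 241.5 TPM, with replicate 3 nearest to WT. The call was lost with no filter and rows at 0 in all samples kept (0.0711). PDE12, which degrades the adenylate chains, had means of 25.1 TPM in WT against 21.1 in DKO1 and was not called (limma adjusted p = 0.257). Of the 7 genes described for this arm, the 4 OAS genes included, 4 rose, 1 fell and 2 did not pass. Over all tested genes 18.8% were called higher and 9.6% lower. The median change of the 7 genes was 1.81 on the log2 scale, beside 0.07 over tested genes at large. That median is the value of OAS3 itself and does not describe the arm outside the OAS family. ABCE1, PDE12 and CNP, the genes outside the family, had log2 fold changes of −1.03, −0.243 and 0.54. With a block for the replicate number 5 rose, with CNP added (0.0353).

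EIF2AK2, the gene of PKR, was abundant in both lines and its difference missed the threshold (ENSG00000055332.12, chromosome 2). It was at 70.68, 79.5 and 65.86 TPM in WT against 96.02, 133.13 and 85.16 in DKO1. The groups did not overlap, but the lowest DKO1 sample lay close to the highest WT sample. The means were 72.0 ± 6.92 and 105 ± 25.2 TPM, a ratio of 1.46 (SD, n = 3; log2 fold change 0.51, SE 0.18, limma adjusted p = 0.0691). Replicate 2 was the highest and replicate 3 the lowest in both genotypes, and the ratio within a number was 1.36, 1.68 and 1.29.

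Samples with the same number deviated together over all genes, so a fit with the replicate number as a block was also made. With the block EIF2AK2 was called higher (limma adjusted p = 0.015), so that all 6 genes were. It was also called under quantile normalization (0.0362), with mitochondrial genes and spike-ins removed (0.0452) and without DKO1 replicate 3 (0.027, log2 fold change 0.65). Without DKO1 replicate 2 its log2 fold change was 0.33 (adjusted p = 0.102), and over all its alternatives the adjusted p ran from 0.015 to 0.297. GPATCH11, which lies on the opposite strand and overlaps EIF2AK2 in GENCODE release 29, was at 23.04 to 26.72 TPM in WT against 20.49 to 29.02 in DKO1. AC004551.1, antisense to the OAS1, OAS3 and OAS2 genes, was at 0.09 TPM or below. Whether the authors' quantification used the strand is not given in the sources used here.

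PKR is 1 of 4 kinases that phosphorylate eIF2, and its share of their transcripts was higher in DKO1. EIF2AK2 supplied 19.9%, 21.7% and 20.04% of the summed TPM of the 4 kinases in WT and 25.9%, 31.0% and 27.1% in DKO1 (exact permutation p = 0.1, n = 3). The sum itself overlapped, at 350 ± 19.4 in WT and 371 ± 58.2 in DKO1 (TPM, SD, n = 3). EIF2AK1, the haem-regulated kinase, held the largest share in both lines. EIF2AK3, the kinase of endoplasmic reticulum stress, rose from 16.9 ± 2.80 to 25.98 ± 3.69 TPM (SD, n = 3; limma adjusted p = 0.0349). That call was lost under median-ratio scaling (0.0646), quantile normalization (0.0508) and without WT replicate 2 or 3 or DKO1 replicate 1 or 2 (0.127, 0.134, 0.0511 and 0.0711).

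Most genes of the PKR arm were not called, as held for tested genes at large. Of 21 tested genes, EIF2AK2 included, 2 rose, 2 fell and 17 did not pass. Over all 13604 tested genes 18.8% were called higher and 9.6% lower, and 9740 did not pass. The median change of the arm on the log2 scale was −0.03. With the replicate block 4 rose and 5 fell, with EIF2AK2 and PPP1R15A added to the first and EIF2S1, EIF2S2 and PPP1R15B to the second. DDIT3, a stress transcription factor downstream of eIF2 phosphorylation, rose 2.26-fold, from 14.1 ± 1.35 to 31.8 ± 7.66 TPM (SD, n = 3; limma adjusted p = 0.00519), and this call too was lost when rows at 0 in all samples were kept (0.0517). ATF4, which is controlled mainly at translation, had means of 228 and 205 TPM with overlapping groups (adjusted p = 0.601). The PKR activator PRKRA and the inhibitor DNAJC3 were at 88.5 and 35.3 TPM in WT against 83.7 and 41.6 in DKO1, and neither was called (adjusted p = 0.62 and 0.269).

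The 2 that fell were EIF2S3, the gamma subunit of eIF2, and EIF2B5, the catalytic subunit of its exchange factor. EIF2S3 went from 254 ± 11.04 to 192 ± 22.4 TPM and EIF2B5 from 64.9 ± 3.96 to 44.6 ± 6.91 TPM (SD, n = 3; limma adjusted p = 0.0382 and 0.0255). Both calls were lost without WT replicate 1, 2 or 3 (0.121, 0.147 and 0.104 for EIF2S3, and 0.0807, 0.0725 and 0.111 for EIF2B5) and without DKO1 replicate 1 (0.0714 and 0.0612). The EIF2S3 call was also lost with no filter (0.053), quantile normalization (0.172), no variance trend (0.0641) and mitochondrial genes and spike-ins removed (0.116).

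ADAR was the most abundant of the 6 genes in WT and had the smallest fold change as fitted, though its shift against EIF2AK2 overlapped between genotypes and without DKO1 replicate 2 EIF2AK2 was the smaller (0.33 against 0.39) (ENSG00000160710.11, chromosome 1). Its values were 103.75, 97.55 and 101.71 TPM in WT against 137.53, 118.07 and 128.06 in DKO1. All DKO1 samples lay above all WT samples. The mean rose 1.27-fold, from 101 ± 3.16 to 128 ± 9.73 TPM (SD, n = 3; log2 fold change 0.34, SE 0.10, limma adjusted p = 0.0493). The call was narrow. It was lost without WT replicate 1, 2 or 3 (0.13, 0.187 and 0.154), without DKO1 replicate 1 or 3 (0.0873 and 0.0593), under median-ratio scaling (0.159, or 0.336 with factors over all genes above 0 in every sample), above a mean of 5 TPM (0.0622), with no filter (0.0506, or 0.0761 with rows at 0 in all samples kept) and with no variance trend (0.0834). With the replicate block it was kept (0.0353). The table gives 1 value per gene, so the interferon-induced long isoform of ADAR and its constitutive short isoform are counted together.

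The other tested genes of editing and Z-RNA sensing were called lower or not called. ADARB1, the second active adenosine deaminase, was at 4.49 to 5.61 TPM in WT against 5.23 to 7.25 in DKO1 and was not called (limma adjusted p = 0.417). ADARB2 and ZBP1, a sensor of left-handed RNA, were listed at 0 in all 6 samples. RIPK3, a kinase of necroptosis, was listed at 0 in all WT samples and at 0.62, 0.23 and 0.87 TPM in DKO1, too low for the test. With no filter RIPK3 and ADAD1, the latter at no more than 0.12 TPM, were called higher (limma adjusted p = 0.0327 and 0.0413). Among 10 listed genes, 5 were tested, of which ADAR rose and DHX9 and MLKL fell, and the median change on the log2 scale was 0.01. Of all tested genes 18.8% were called higher and 9.6% lower. DHX9, a helicase that unwinds double-stranded RNA, went from 292 ± 11.2 to 202 ± 36.7 TPM, and MLKL, the executioner of necroptosis, from 13.2 ± 0.44 to 7.95 ± 0.69 TPM (SD, n = 3; limma adjusted p = 0.0274 and 0.0102). The DHX9 call was lost under quantile normalization (0.057) and without WT replicate 1, 2 or 3 or DKO1 replicate 1 or 2 (0.0755, 0.0927, 0.106, 0.0576 and 0.0525). The MLKL call was lost without WT replicate 2 or 3 (0.0561 and 0.052).

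**Figure D3:**
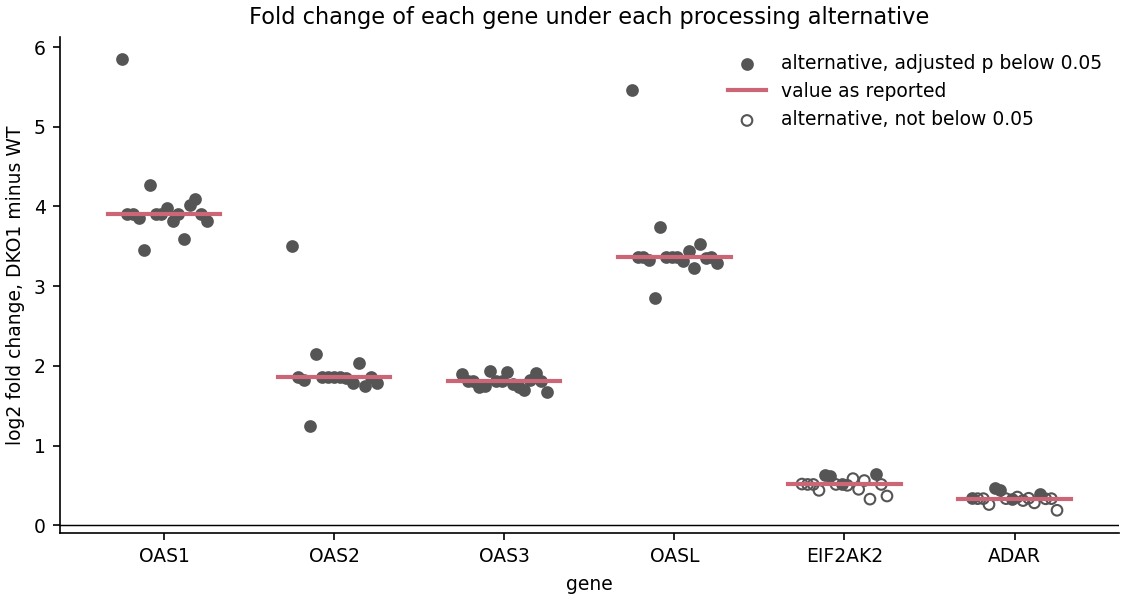
Log2 fold change of each of the 6 genes, with a red line for the value as reported and a point for each processing alternative, filled where the adjusted p was below 0.05. The 4 OAS genes stay filled throughout, whereas EIF2AK2 and ADAR, between 0.19 and 0.65, hold both filled and open points.

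The order of levels among the 6 genes was similar in its upper part and differed in its lower part. In WT, ADAR at 101 TPM lay above EIF2AK2 at 72.0 TPM and OAS3 at 9.96 TPM, with no overlap between neighbours. OAS1, OAS2 and OASL followed at 0.22, 0.20 and 0.17 TPM and did not differ beyond their spread. In DKO1, ADAR and EIF2AK2 overlapped, OAS3 came next at 37.4 TPM, OAS1 at 18.1 TPM and OASL at 11.2 TPM overlapped, and OAS2 was last at 3.42 TPM.

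Unequal change between the genes was examined in the 15 pairs they form. The difference in log2(TPM + 1) between 2 genes did not overlap between genotypes in 12 pairs, each with an exact two-sided permutation p = 0.1 (n = 3), the smallest possible, and 0.125 after Benjamini-Hochberg adjustment over the pairs. The 15 pairs reuse the same 6 genes and are not independent. The share of other gene pairs without overlap was not computed, so the count of 12 has no background. The widest shift was in OAS1 minus ADAR, from −6.39 ± 0.12 to −2.83 ± 0.47 (SD, n = 3). The 3 pairs that overlapped were OAS1 with OASL (shift 0.53), OAS2 with OAS3 (0.05) and EIF2AK2 with ADAR (0.18). These shifts depend on the pseudocount where a gene is low, so the small shift of OAS2 with OAS3 does not show equal change. With a pseudocount of 0.1 the log2 fold change was 3.50 for OAS2 and 1.90 for OAS3.

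Interferon ligands were scarce at the RNA level. Of 11 ligand genes in the table, none reached the level for testing. With no filter IFNB1 and IFNA1 were called higher (limma adjusted p = 0.00763 and 0.0366). IFNB1, the beta interferon, was listed at 0 in all WT samples and at 0.53, 0.44 and 0.26 TPM in DKO1. IFNL1, a type III interferon, was listed at 0 in WT and at 0.36, 0.16 and 0.1 TPM in DKO1. IFNE was at 0.28 to 0.40 TPM in WT against 0.37 to 1.18 in DKO1, and IFNA1, IFNA2, IFNL2 and IFNL3 reached at most 0.11 TPM in any sample. IFNG, IFNK, IFNL4 and IFNW1 were listed at 0 throughout. TPM keeps no record of depth, so no limit of detection can be given.

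Both named factors of the complex through which type I interferon acts were higher, and their binding to promoters was not measured. IRF9, the DNA-binding part of the complex, was at 3.93, 4.11 and 4.16 TPM in WT against 58.14, 36.07 and 52.17 in DKO1 (limma adjusted p = 2.81e-05). STAT2, which gives the complex its activating domain, rose 2.09-fold, from 13.1 ± 1.56 to 27.4 ± 4.84 TPM (SD, n = 3; limma adjusted p = 0.00417). Among 16 signalling genes, 14 were tested, and 4 rose, 0 fell and 10 did not pass in limma. Over all tested genes 18.8% were called higher and 9.6% lower. The median change of the signalling genes on the log2 scale was 0.39. With the replicate block 6 rose, with IL10RB and IRF1 added (0.018 and 0.0141). The other risers were JAK1, a receptor kinase (29.1 and 46.1 TPM), and USP18, which restrains the receptor (6.01 and 12.7 TPM). The receptor gene IFNAR1 was not called (adjusted p = 0.558), and the JAK1 call was lost without WT replicate 3 (0.052).

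Sensors of long double-stranded RNA also rose in part. Among 8 listed genes that the table holds, 6 were tested, and IFIH1, RIGI and DHX58 rose (limma adjusted p = 2.21e-05, 5.33e-05 and 0.000115) while 3 did not pass. Of all tested genes 18.8% were called higher. With the replicate block TBK1, a kinase below the sensors, was called lower (0.0205). DHX58, a regulator of the other sensors, was at 0.66, 0.41 and 0.62 TPM in WT against 5.53, 4.77 and 6.87 in DKO1, with no overlap. MAVS, the adaptor below IFIH1 and RIGI, was not called, at 6.93 ± 0.83 in WT and 6.03 ± 0.77 in DKO1 (TPM, SD, n = 3; limma adjusted p = 0.471).

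**Figure D4:**
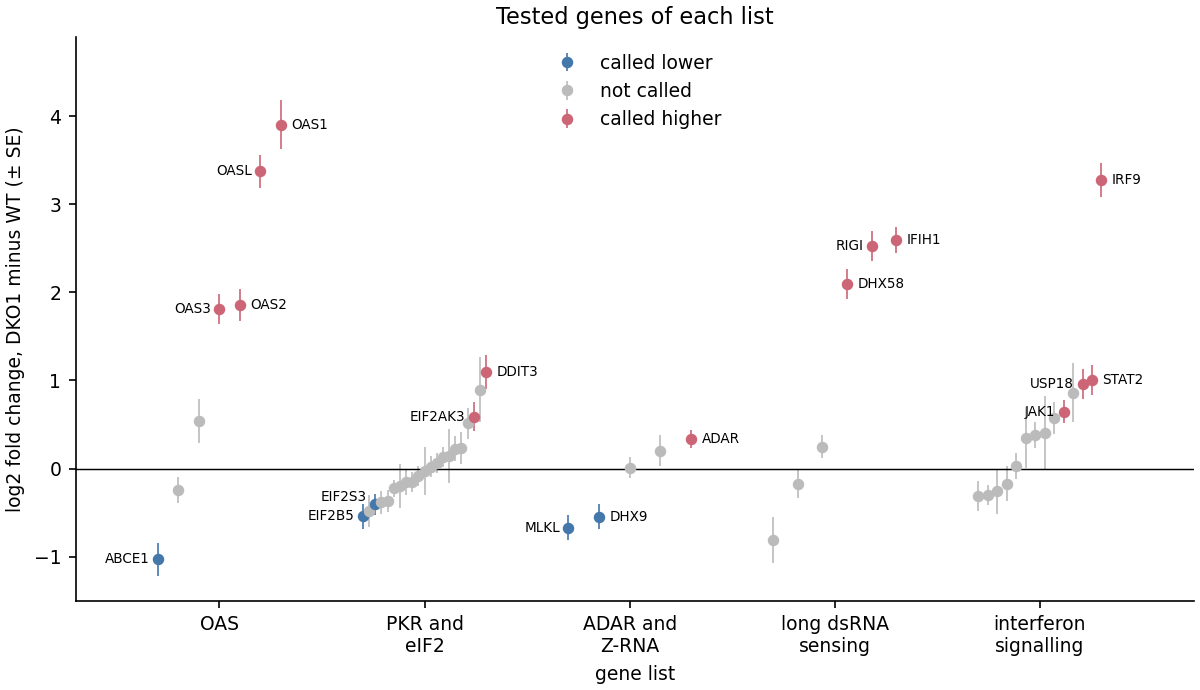
Log2 fold change with its SE for the tested genes of 5 lists, red where called higher, blue where called lower and grey where not called. The OAS genes, the 3 sensors and IRF9 stand at 1.81 or above, while most genes of the PKR and eIF2 list lie near 0.

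Markers of blood cells were low but differed between the lines. The 12 leukocyte markers summed to 0.4 to 1.22 TPM in WT against 6.57 to 9.8 in DKO1. Most of the DKO1 sum was CD3D, a T cell receptor subunit, at 6.9, 4.6 and 5.54 TPM. PTPRC, the common leukocyte antigen, was listed at 0 in WT and at 0.43, 0.51 and 0.61 TPM in DKO1, while LILRA4 and NKG7 were at 0 in all samples. Their part in the OAS result was not tested. Mitochondrial share also moved with genotype, and with those genes and spike-ins removed the log2 fold changes of OAS1, OAS2, OAS3 and OASL were 4.27, 2.15, 1.94 and 3.74.

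Genes next to each of the 6 were compared in the same fit. OAS1, OAS3 and OAS2 lie side by side on chromosome 12, in that order. On one side the nearest tested genes were RPL6, a ribosomal protein, and PTPN11, a phosphatase. Both fell, PTPN11 from 137 ± 5.64 to 82.1 ± 18.3 TPM and RPL6 from 2226 ± 71.4 to 1613 ± 263 TPM (SD, n = 3; limma adjusted p = 0.0135 and 0.0412). On the other side DDX54 and RITA1 were not called (adjusted p = 0.403 and 0.142), though RITA1 was lower under quantile normalization (0.0125). RPH3A, DTX1, RASAL1 and CFAP73, which lie among these genes, were below 1 TPM in every sample and were not tested.

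The PTPN11 call was lost without WT replicate 2 or 3 (0.0546 and 0.0577) and with rows at 0 in all samples kept (0.0955). The RPL6 call was lost without WT replicate 1, 2 or 3 (0.126, 0.105 and 0.14) and without DKO1 replicate 1 or 2 (0.11 and 0.0684), with no filter (0.0781), quantile normalization (0.117), no variance trend (0.0545) and mitochondrial genes and spike-ins removed (0.0724).

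OASL lies apart from the other OAS genes on the same chromosome. Of its neighbours, P2RX4, an ATP-gated channel, rose from 2.96 ± 0.25 to 6.67 ± 1.43 TPM (SD, n = 3; limma adjusted p = 0.00874), a call lost under quantile normalization (0.0918). SPPL3 and CAMKK2 were not called, although SPPL3 was called higher without DKO1 replicate 3 (log2 fold change 0.55, adjusted p = 0.0148). P2RX7, next to P2RX4, was not tested and was at 0.92 to 1.1 TPM in WT against 0.2 to 0.32 in DKO1.

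Around EIF2AK2 none of HEATR5B, GPATCH11, CEBPZOS and CEBPZ was called. CEBPZ had means of 122 ± 13.1 and 65.5 ± 34.8 TPM (SD, n = 3; limma adjusted p = 0.0549, and 0.0179 with the replicate block). CEBPZ was also called lower under both median-ratio scalings (0.0201 and 0.012), quantile normalization (0.0464), with mitochondrial genes and spike-ins removed (0.0487) and without DKO1 replicate 3 (0.00102), and CEBPZOS without that sample (0.0445). Around ADAR, IL6R, the interleukin 6 receptor, rose from 2.66 ± 0.43 to 4.603 ± 0.417 TPM (SD, n = 3; limma adjusted p = 0.025), and UBE2Q1, PMVK and PBXIP1 were not called. UBE2Q1 and PBXIP1 were called with the replicate block (adjusted p = 0.0209 and 0.0244) and without DKO1 replicate 2 (0.0209 and 0.0311). The IL6R call was lost under quantile normalization (0.373), the added median-ratio scaling (0.065) and no filter with rows at 0 kept (0.0529), and without WT replicate 1, 2 or 3 (0.081, 0.0505 and 0.109).

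**Figure D5:**
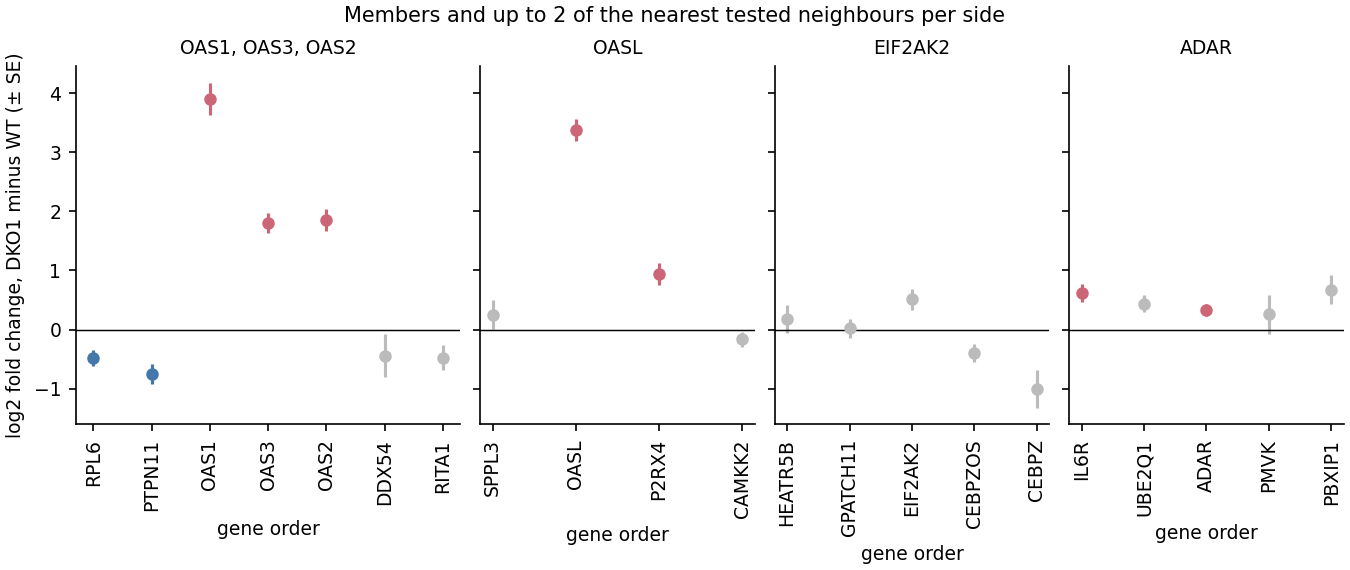
Log2 fold change with its SE for each of the 6 genes and up to 2 of its nearest tested protein-coding neighbours per side, in gene order, red where called higher, blue where called lower and grey where not called. The 3 clustered OAS genes stand above 1.8 between flanking genes that lie below 0.

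Other genes came close to each profile over the 6 samples, by distance between log2(TPM + 1) values centred on their mean. Nearest to OAS1 were TFF2, a gut trefoil peptide (distance 0.63), and TSPYL5 (0.65). TFF2 was at 0, 0.26 and 0 TPM in WT against 19.69, 12.06 and 14.09 in DKO1, with replicate 1 highest as in OAS1. TSPYL5 was listed at 0 in all WT samples. Nearest to OASL were TGFBI, an extracellular matrix protein (0.22), and IRF9 (0.25). AQP3 and TRNP1 were nearest to OAS3 (0.19 and 0.22), and TSSC2 and FTH1, the ferritin heavy chain, to OAS2 (0.17 and 0.20).

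EIF2AK2 and ADAR had closer matches. ARPC5, a subunit of the actin-branching complex, was nearest to EIF2AK2 (distance 0.09), at 131.4, 157.27 and 123.28 TPM in WT against 189.19, 260.66 and 165.76 in DKO1, with replicate 2 highest in both. TM9SF2 followed (0.11). ARMH3 (0.08) and CDCA8, a mitotic complex subunit (0.08), were nearest to ADAR. Of these 4, TM9SF2 alone was called (limma adjusted p = 0.0441), and this was lost under median-ratio scaling (0.127), no filter (0.072), a mean of 5 TPM (0.0513) and no variance trend (0.0608). It was also lost on leaving out WT replicate 1, 2 or 3 or DKO1 replicate 1 or 2 (0.141, 0.0764, 0.149, 0.0704 and 0.0606). ARPC5 was called with the replicate block (0.00755) and under quantile normalization (0.0229). It was also called with mitochondrial genes and spike-ins removed (0.04) and without DKO1 replicate 3 (0.0245). ARMH3 and CDCA8 were called with mitochondrial genes and spike-ins removed (0.0409 and 0.0298).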

How the data were processed

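RNA was compared between 3 WT and 3 DKO1 samples, grouped by their titles. The deposited values are TPM per gene, made by the authors and written to 2 decimals. The submitters' processing notes name edgeR 3.12.1, RSEM 1.2.21, STAR 2.5.3a, FastQC and Trim Galore 0.4.0, and the builds GRCh37 and hg19, without role or order. No source used here gives the annotation release or strand setting. The depth of each sample is unknown. Of 57897 rows, 77 were spike-ins, left out of all tests.

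Symbols were matched by Ensembl identifier (89.9% of human rows). limma 3.58.1 in R 4.3.3 was fitted to log2(TPM + 1), with genotype alone in the model and a trend in the variance, and Benjamini-Hochberg adjustment over all 13604 tested genes. It was also run on data simulated with independent normal noise in each gene. Those data held no deviation shared by samples of the same number and no floor at 0, so that run does not cover these features. No ratio is given where a mean was below 0.5 TPM. Exact tests are two-sided permutations over samples. The labels do not say that replicates are separate cultures, so the spread behind each p-value may be technical. Deviations from the group means correlated at 0.35, 0.572 and 0.267 between samples numbered 1, 2 and 3, over genes. Between samples of unlike number they ran from −0.383 to 0.128. By this check, samples of the same number were the more alike. The labels state no pairing, and what such samples share was not tested.

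Genes named are the 6, the interferon ligands, called genes of each list (all where 5 or fewer), the 2 closest profiles and the 2 nearest tested protein-coding neighbours per side, by gene order in RefSeq on GRCh38.p14. Others (PDE12, PRKRA, DNAJC3, ATF4, EIF2AK1, ADARB1, ADARB2, ZBP1, IFNAR1, MAVS, PTPRC, EPCAM, CDH1, VIL1, RIPK3, ADAD1 and genes whose call the block changed, untested neighbours) were named after their values were seen. KRT19 and KRT20 were likewise named after their values were seen. The genes and lists were chosen with earlier results of these data known. IKBKE was not analysed here, and some genes that this rule names are not reported here or counted in their lists. The alternatives tried were no filter, a filter at a mean of 5 TPM, a pseudocount of 0.1, median-ratio scaling, quantile normalization, removal of mitochondrial genes and spike-ins with rescaling, no variance trend, the replicate block and leaving out each sample. For 2 of them the definition was changed after results had been seen. No filter first kept rows at 0 in all samples and then dropped them, and median-ratio factors were first taken over all genes above 0 in every sample and then over tested genes. Both first definitions are reported too, as alternatives added after seeing the data.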

Additional observations from a re-analysis of the deposited data

How the results depend on the processing

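OAS1, OAS3 and OASL kept their direction and call in all 16 alternatives and OAS2 in the 15 that could test it, since its mean lies below 5 TPM. EIF2AK2 kept its direction with a log2 fold change of 0.329 to 0.648, and ADAR with 0.189 to 0.466, but their calls changed as given above. Of the 6 genes, 5 were called higher as reported, and 3 above a mean of 5 TPM, where OAS2 was not tested. With no filter, median-ratio scaling (either form of both) or no variance trend 4 were called, and 4 to 5 with a sample left out. All 6 were called with the replicate block, under quantile normalization and with mitochondrial genes and spike-ins removed. All genes called higher were 4400 with no filter and 1145 above a mean of 5 TPM, against 2558. Leaving out a sample gave 1705 (without WT replicate 3) to 2842 higher and 524 (without WT replicate 2) to 2079 lower genes (without DKO1 replicate 3), against 1306 lower.

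In the PKR list (2 higher, 2 lower as reported), 1 was lower with no filter, quantile normalization, no variance trend or mitochondrial genes and spike-ins removed, 1 was higher and 4 lower under median-ratio scaling, and 4 were higher and 5 lower with the replicate block. Leaving out a sample gave 1 to 3 higher and 0 to 4 lower. In the ADAR list (1 higher, 2 lower), 2 were higher with no filter, 0 above a mean of 5 TPM, under median-ratio scaling or with no variance trend, and 1 was lower under quantile normalization. Leaving out a sample gave 0 to 1 higher and 0 to 2 lower. Leaving out a sample gave 3 to 6 higher signalling genes, and 4 to 5 higher in the OAS list. Among signalling genes 1 was lower under quantile normalization, and among sensors 1 was lower under quantile normalization, median-ratio scaling and the replicate block and 0 to 1 with a sample left out, against 0 as reported in both.

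The definitions tried first gave different counts, and were chosen as additions after seeing the data. With no filter and rows at 0 in all samples kept, 2635 genes were higher and 519 lower, the PKR list had 0 in each direction, the OAS list 0 lower and the ADAR list 0 higher and 1 lower. The calls of ABCE1, DDIT3, DNMT3B, EIF2AK3, EIF2B5, EIF2S3 and DHX9 were then lost (adjusted p = 0.0711, 0.0517, 0.0806, 0.134, 0.102, 0.115 and 0.133). With median-ratio factors over all genes above 0 in every sample, 2080 were higher and 2094 lower, the PKR list had 1 higher and 5 lower, the ADAR list 0 higher and the sensors 1 lower. The cause of these shifts was not tested.

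Directions turned for HEATR5B (−0.028), PMVK (−0.133) and GPATCH11 (−0.00015) under quantile normalization and for GPATCH11 under both median-ratio scalings (−0.053 and −0.122), none of them called. With a sample left out HEATR5B ran from −0.056 (without DKO1 replicate 3) to 0.398, and GPATCH11 from −0.078 (without DKO1 replicate 3) to 0.163, with −0.033 without WT replicate 3 and −0.026 without DKO1 replicate 2. Among uncalled genes named after their values were seen, PRKRA turned under quantile normalization (0.029) and with mitochondrial genes and spike-ins removed (0.027), EIF2AK1 (0.024) and ADARB1 (−0.097) under quantile normalization, and EPCAM with those genes removed (0.002). With a sample left out ATF4 ran from −0.393 to 0.087 (without DKO1 replicate 2) and EPCAM from −0.184 to 0.031 (without DKO1 replicate 1). The calls that the replicate block changed are given above, besides KRT8 and KRT18 among the epithelial markers, which it called lower (0.011 and 0.047). Depth is unknown, so no counting error is given.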
